A study of Drosophila melanogaster with 6 samples.

Results

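The Hedgehog pathway genes examined here are hh, ptc, smo, cos, fu, Su(fu) and ci, which encode the signal, its receptor and the proteins that carry the signal to the nucleus. They were chosen by name as the core of the pathway, and they are 7 of the 13945 protein-coding genes on the 6 chromosome arms that carry summits. For each gene, every binding summit of Flag-tagged Dwg inside the gene or in the 1000 bp around it was taken from both deposited summit lists and placed relative to transcript starts and introns. Dwg (deformed wings, also called Zw5) is a zinc-finger protein that binds insulators, DNA elements that can keep an enhancer from acting on a promoter. Chromatin immunoprecipitation followed by sequencing (ChIP-seq) was used to find where it sits in the genome of S2R+ cells, an embryo-derived line of the fly.

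The series holds 6 libraries from S2R+ cells that express Flag-Dwg: 2 precipitated with anti-Flag antibody, 2 precipitated with control IgG, and 2 made from input chromatin, which is DNA taken before precipitation. The tag was on an introduced protein, so the summits describe Flag-Dwg, at whatever level these cells made it, and not the protein of untagged cells. Both input libraries carry dwg1 as their antibody label, and they were treated as input because that is what their titles call them. The deposited lists give the 1 bp position at which the signal of each peak is highest and a score, the −log10 of the q-value of the peak. There is 1 list for the ChIP against the IgG control (10950 summits, median score 12.9, highest 905.1) and 1 for the same ChIP against input (12971 summits, median 20.9, highest 2448). The 2 lists therefore share their ChIP libraries, and a summit found in both is not a replicate. Scores of one list are not on the scale of the other, so each was read by its place among the summits of its own list. The lists hold no value per library, so depth is unknown, no error between replicates can be given, and no difference below was tested. Cells that lack Flag-Dwg, precipitated with the same antibody, and the expression of the genes were not analysed here, and summits alone do not allow a check of the identity of the line. Values below are from the comparison with the IgG control unless input is named, and positions are those of the dm6 genome.

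Hedgehog is a secreted protein that patterns the embryonic segments and the wing of the fly. Without it, its receptor Patched keeps the membrane protein Smoothened inactive, the kinesin-like scaffold Costal, the kinase Fused and the inhibitor Su(fu) hold the zinc-finger transcription factor Cubitus interruptus (Ci) in the cytoplasm, and part of Ci is cut to a repressor. With Hedgehog bound, Patched releases Smoothened, Ci enters the nucleus whole, and it activates target genes, of which ptc is one.

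DNA from the 101 bp around the summits at hh, smo, fu and Su(fu) is shown first. These are the summits nearest to the starts of the signal, the signal transducer, the kinase and the inhibitor. The summit past the end of hh that only the input list holds is shown with them. All are written in the direction of the named gene, and capitals mark any of 6 words that were searched on both strands: CGATA (the core bound by the insulator protein BEAF-32), TATCGATA (the DNA replication-related element, which contains CGATA and reads the same on both strands), GAGAG (bound by the GAGA factor), the 6-letter words GCTGAG and GCTGCG, and the 9-letter Ci word TGGGTGGTC. Where a summit lies in an untranslated region (UTR), 30 bases around the word are given. The first sequence, chr3R:23141832-23141861 on the minus strand, is from the 5′ UTR of hh, and the second, chr3R:23127984-23128084 on the minus strand, lies past the end of hh. The third, chr2L:277742-277771 on the plus strand, is from the 5′ UTR of smo, and the fourth, chr2L:277067-277142 on the plus strand, is upstream of smo and inside its neighbor CG17078. The fifth, chrX:18657806-18657835 on the plus strand, is from the 5′ UTR of fu, past the summit at 18657785 and not containing it. The last, chr3R:12691351-12691438 on the minus strand, is coding sequence of Su(fu) that begins with its first ATG.
hh, 5′ UTR: cactctgcgcgcaCGATActccgctcggaa
hh, past the end: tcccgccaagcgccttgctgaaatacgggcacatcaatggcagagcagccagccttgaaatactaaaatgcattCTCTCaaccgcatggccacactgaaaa
smo, 5′ UTR: cactgacgaaccGCTGAGcaagaaacgggc
smo, upstream: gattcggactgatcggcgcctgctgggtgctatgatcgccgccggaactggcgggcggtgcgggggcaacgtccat
fu, 5′ UTR: cacatcccaatcCGCAGCaaaacaaagaat
Su(fu), coding: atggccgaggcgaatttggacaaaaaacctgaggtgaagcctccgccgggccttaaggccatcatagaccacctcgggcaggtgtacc
Of the windows printed, hh carries CGATA, smo GCTGAG and fu GCTGCG (read on the other strand as CGCAGC), the summit past the end of hh carries GAGAG (read as CTCTC), and the smo upstream and Su(fu) windows carry none of the 6. The sequences at ptc and cos are not printed here, and the words at all 14 summits are counted further on.

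A Flag-Dwg summit was found at 6 of the 7 genes when the ChIP was set against the IgG control and at the same 6 when it was set against input, and ci was without one in both. Of all protein-coding genes, 52.1% had a summit against the IgG control by the same rule and 55.5% had one against input. The 6 genes held 14 summits, with scores from 2.21 to 144.5 and a median of 16.0. Each of the 14 had a summit against input at most 6 bp away, and the input list held 1 further summit, past the end of hh. Of all summits, 86.9% of those against the IgG control and 73.3% of those against input had a summit of the other list within 100 bp. The 6 genes also had a summit within 500 bp of a start of their own in either list, where the share of all protein-coding genes was 40.1% against the IgG control and 43.2% against input. Of the shortest class of genes 20.1% had a summit, and among genes of like length (1 of 10 equal length classes) the share with a summit was 48.5% to 67.0% for the 7 genes. The map of the 7 genes shows 5 summits upstream, 4 downstream, 3 in a 5′ UTR, 1 in coding sequence near a start and 1 in an intron. Of the 14, 9 thus lay outside the genes. These places were not counted for the summits of all genes, so no general share stands beside them.

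**Figure D1:**
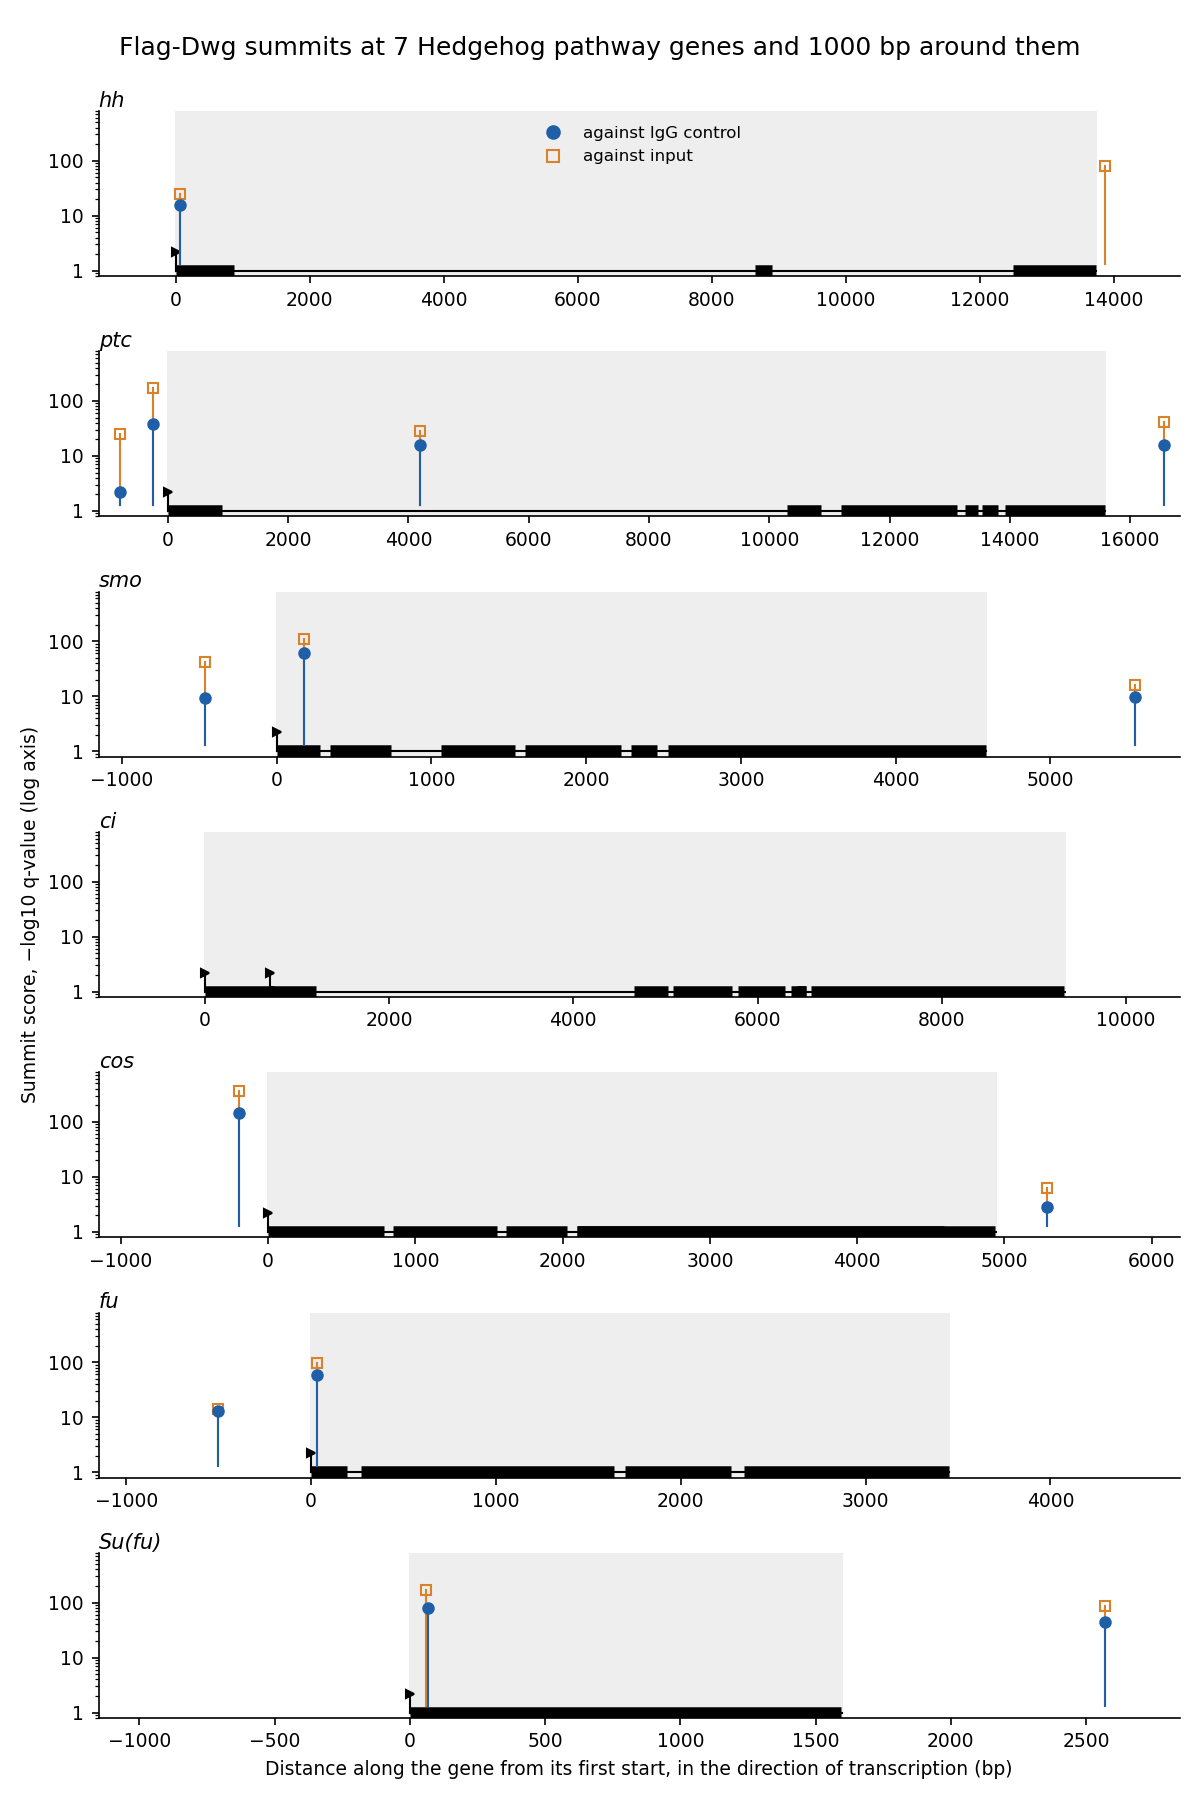
Summits of both lists along each gene, from 1000 bp before its first start to 1000 bp past its end, with the score as −log10 of the q-value on a log axis. Grey spans the gene, black boxes are exons, arrowheads are transcript starts, filled circles are summits against the IgG control and open squares summits against input. Of the 14 summits against the IgG control, 1 lies in an intron, and ci has none.

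By the highest score of each gene, the order was cos (144.5), Su(fu) (77.9), smo (61.1), fu (58.5), ptc (38.9) and hh (15.4). The median of the 6 was 59.8, and that of the highest scores of all 7259 genes with a summit was 29.7. cos lay above 87.5% of those genes, Su(fu) above 75.8%, smo above 70.2%, fu above 68.9%, ptc above 57.6% and hh above 31.5%. The ligand was thus the lowest of the bound genes and the scaffold the highest. The highest summit lay nearest to a start of the gene itself for 5 of the 6, all but cos, and this was so for 57.5% of all genes with a summit. Against input it was so for 4 of the 6, all but cos and hh, and for 58.4% of all genes with a summit. Over all 14 summits, 7 lay nearest to a start of the gene itself and 7 nearest to a start of a neighbor. This share was not counted over all summits of all genes, and the 57.5% holds for highest summits only.

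hh, which encodes the ligand, spans 23128169 to 23141906 of chromosome 3R on the minus strand (FBgn0004644) and has 1 start, at 23141906. Its summit against the IgG control falls 59 bp into the 5′ UTR, at 23141847, and its score of 15.4 ranks 4864 of 10950. Against input the same position scored 24.8, and 55.6% of summits in the IgG list and 54.7% in the input list scored lower. Both lists thus placed the hh start near the middle of all summits. The second summit at hh was in the input list alone, at 23128034, 135 bp past the end of hh and 53 bp upstream of the start of CG31457. Its score of 80.4 lies above 81.1% of the summits against input. It was the highest summit at hh in that list, and the only one at any of the 7 genes that a single list held. The 2 introns of hh, the longest of 7778 bp, held no summit in either list. Just outside the 1000 bp, the nearest summit is 1360 bp past the end of hh, with a score of 3.61.

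ptc, which encodes the Hedgehog receptor, spans 8649649 to 8665223 of chromosome 2R on the plus strand (FBgn0003892) and had 4 summits, the most of the 7 genes. The highest is at 8649405, 244 bp upstream of its single start, with a score of 38.9 against the IgG control (79.1% of summits lower) and 174.7 against input (91.2% lower). A second upstream summit is at 8648854, 795 bp before the start. It scored 2.21 against the IgG control, where 4.39% of summits scored lower, and 25.1 against input, where 55.0% did. The place of this upstream summit therefore depended on the control, while the one nearer to the start was high in both lists. The third summit is at 8653849 in the first intron, which is 9401 bp long, and 4200 bp past the start, and it scored 15.9 (56.6% lower) against the IgG control and 28.2 (58.0% lower) against input. Of the 25 distinct introns of the 7 genes, this was the only one with a summit in either list. Many of the 25 are short, with the longest at 319 bp in smo, 63 bp in cos and 72 bp in fu. Introns that overlap between ci transcripts were counted apart. The share of introns with a summit over all genes was not counted, so this count is no measure of a lack of intronic summits. The fourth summit is at 8666210, 987 bp past the end of ptc, with a score of 16.1, and it lies 39 bp from the start of Acsl, an acyl-CoA synthetase gene. It is just inside the 1000 bp, and the next one on that side, 1494 bp past the end and just outside, scored 1.84.

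The 9-letter Ci word was looked for along the whole of each gene and the 1000 bp around it, a search that was added after the values were seen. ptc held 4 copies in 17575 bp, or 0.228 per kb, where the 6 arms held 1205 copies, or 0.00900 per kb. Of these 4 copies, 3 lie upstream of the start, at 754, 697 and 631 bp, which is 41, 98 and 164 bp from the farther upstream summit and on its side toward the start. The other copy is 7605 bp downstream of the start, 3405 bp from the intronic summit. hh held 1 copy, 2377 bp from its summit, smo held 1, 209 bp from its summit near the start, and ci, cos, fu and Su(fu) held none. In the 101 bp around a summit, 8 of the 10950 summits against the IgG control (0.0731%) had the Ci word, and the upstream summit of ptc was 1 of the 8. In windows of the same size 350 bp away the share was 0.0548%. A copy of the word is a match of letters, and binding of Ci was not measured.

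**Figure D2:**
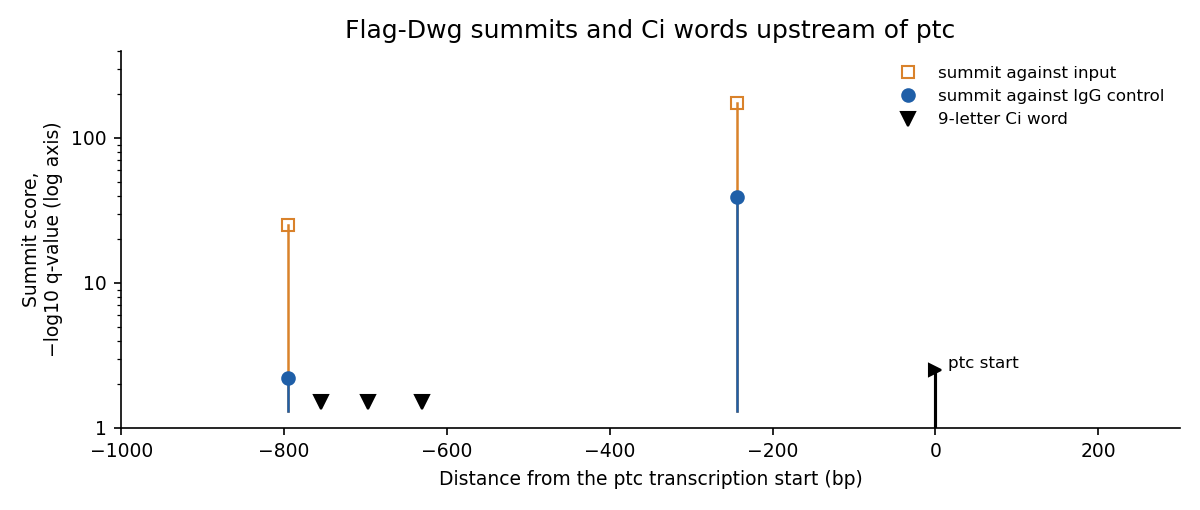
Flag-Dwg summits and copies of the Ci word from 1000 bp before the start of ptc to just after it. Scores are −log10 of the q-value on a log axis, filled circles are against the IgG control, open squares against input, and triangles mark the words at an arbitrary height. The 3 words lie between both upstream summits, nearer to the one at 795 bp.

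smo, which encodes the signal-transducing membrane protein, spans 277582 to 282167 of chromosome 2L on the plus strand (FBgn0003444). Its highest summit falls 174 bp into the 5′ UTR, at 277756, and scored 61.1 (86.7% of summits lower) against the IgG control and 112.3 against input (86.0% lower). That position is also inside CG17078, which is read from the opposite strand and has several starts, the nearest at 478 bp. A second summit at 277117, 465 bp upstream of the smo start, lies 95 bp inside CG17078 from another of its starts. It scored 9.40 (39.5% lower) against the IgG control and 42.7 (68.5% lower) against input, so its place moved up with input as the control. The third summit, at 283128, is 961 bp past the end of smo and 67 bp from the start of CG11601, with scores of 9.86 and 15.9. The 5 introns of smo, none longer than 319 bp, held no summit.

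cos, which encodes the kinesin-like scaffold, spans 7382176 to 7387115 of chromosome 2R on the minus strand (FBgn0000352) and had the highest summit of the 7 genes. It is at 7387311, 196 bp upstream of the single start, with a score of 144.5 that ranks 499 of 10950 and a score of 358.1 against input that ranks 471 of 12971. It stood near the top of both lists, above 95.4% of summits in one and 96.4% in the other. The same position is inside Dhx15, an RNA helicase gene on the opposite strand, with a start of Dhx15 13 bp away. The summit is thus nearer to a start of Dhx15 than to that of cos. The 101 bp around it held 35.6% G and C, lower than at all but 0.484% of summits, whose median was 52.5%. The second summit at cos, 349 bp past its end and 42 bp from the start of Dscam1, a cell adhesion gene, was among the lowest in both lists, with scores of 2.81 (7.54% lower) and 6.34 (17.3% lower).

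fu, which encodes the kinase, spans 18657755 to 18661204 of chromosome X on the plus strand (FBgn0001079). Its highest summit falls 30 bp into the 5′ UTR, at 18657785, the closest of all 14 to a start of its own gene. It scored 58.5 (86.0% of summits lower) against the IgG control and 98.5 (84.2% lower) against input. The other summit is at 18657250, 505 bp upstream of fu and 16 bp from a start of CG6659 on the opposite strand, and it scored 12.8 (49.5% lower) and 13.9 (37.8% lower). Beyond the window, the next summit against the IgG control is 113868 bp past the end of fu, and the next one upstream is 10166 bp away with a score of 51.4. Against input the next one upstream is 4077 bp away.

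Su(fu), which encodes the inhibitor that binds Ci, spans 12689873 to 12691468 of chromosome 3R on the minus strand (FBgn0005355) and has 1 exon. A summit falls 67 bp past the start, at 12691401 in the coding sequence, and scored 77.9 (90.0% of summits lower). In the input list this summit is 6 bp nearer to the start and scored 171.4 (91.0% lower). A second one at 12688899 is 974 bp past the end, inside the neighbor kar and 468 bp downstream of its start, with scores of 43.9 (81.3% lower) and 86.1 (82.2% lower). Su(fu) was thus the only gene of the 7 with a score of at least 20 against the IgG control both near its start and past its end.

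ci, which encodes the transcription factor of the pathway, spans 47710 to 57041 of chromosome 4 on the minus strand (FBgn0004859). It has 2 starts, at 56331 and 57041, and 7 distinct introns, the longest of 3906 bp, and neither list had a summit at any of them. The nearest summit is at 43036, 4674 bp past the end of ci, toward the start of PlexB, with scores of 11.8 against the IgG control and 24.4 against input. Upstream the nearest is at 66368, 9327 bp from the outer start, toward RpS3A, with scores of 12.3 and 11.6. Whether the chromosome bears on the absence at ci was not tested. Chromosome 4 held 67 summits against the IgG control and 108 against input. Of its 80 protein-coding genes, 47.5% had a summit against the IgG control and 67.5% had one against input. The lists hold only peaks past the q-value threshold, so a weaker signal at ci cannot be seen in them.

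A feature that 4 of the 6 bound genes share is a neighbor read in the opposite direction from a start close to theirs, which was counted after the values were seen. The distance between the starts was 72 bp for cos and Dhx15, 275 bp for Su(fu) and Arp1, 370 bp for smo and CG17078, and 469 bp for fu and CG6659. hh, ptc and ci had no such neighbor within 1000 bp. Against the IgG control these 4 genes had the 4 highest scores of the 6, but against input ptc, with 174.7, came second after cos (358.1) and above Su(fu) (171.4), smo (112.3), fu (98.5) and hh (80.4). Of the 7259 protein-coding genes with a summit against the IgG control, 3889 had a neighbor of this kind, beside the 4 of 6 here. Of all protein-coding genes, 36.2% had such a neighbor. Of those with one, 77.0% had a summit, against 37.9% of the rest. Summits at paired starts cannot be given to one gene or the other from their position alone.

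The place of the summits in the 2 lists was also compared, again after the values were seen. For each summit in both lists, the percentage of summits with a lower score was taken in each list, and the difference is given in percentage points. Over the 9513 shared summits the median difference was 3.56 points upward with input as the control, and from the 5th to the 95th percentile it ran from −12.1 to 25.1. Of the 14 summits at the 7 genes, 10 stood higher against input and 4 stood lower. Most of the 9513 shared summits also stood higher, as their median shows, and their exact share was not counted. The far upstream summit of ptc moved most, by 50.6 points, a difference that 17 of the 9513 summits (0.179%) matched or exceeded in either direction. The upstream summit of smo followed with 28.9 points, matched by 3.57% of summits. The ptc summit nearer to the start moved by 12.2 points, and that of cos, the highest of all, stayed near the top. The lists hold no signal of the IgG or input libraries, so which control made these differences was not tested.

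**Figure D3:**
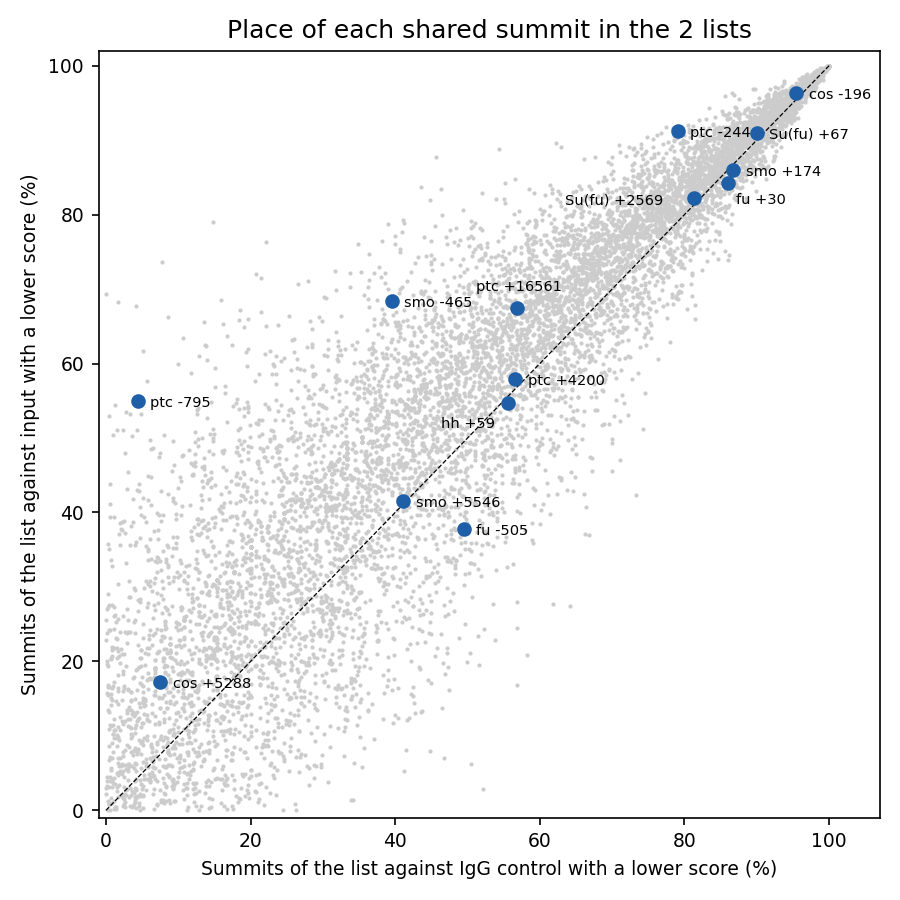
Each of the 9513 summits found in both lists (grey) by the percentage of summits with a lower score against the IgG control (horizontal) and against input (vertical). Blue points are the summits at the Hedgehog genes with their distance from the start in bp, and the dashed line marks an equal place in both lists. The ptc summit at −795 lies farthest above the line of the 14.

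In the 101 bp around the 14 summits, 8 matches to a searched word in a window were counted. CGATA was in 3 windows, those of the hh start, the ptc summit 244 bp upstream and the summit past the end of cos, and 12.9% of all summit windows held it. These 3 windows are at 3 different genes, and the cos summit among them lies 42 bp from the start of Dscam1. GAGAG was in 2, at the same ptc and cos summits, and in 14.9% of all windows. GCTGAG (5.25% of all windows), GCTGCG (12.3%) and the Ci word were in 1 each, at smo, fu and ptc as given above, and TATCGATA (0.731%) was in none. In windows 350 bp away from all summits the shares were 13.8% for CGATA, 11.0% for GAGAG, 3.53% for GCTGAG, 5.13% for GCTGCG and 0.767% for TATCGATA. With so few windows at the 7 genes, these counts describe the summits and are no measure of a preference.

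Other components of the pathway were taken as a list of 25 genes, from the production, spread and reception of Hedgehog to the processing of Ci. All 25 had a summit in either list, where the share of all protein-coding genes was 52.1% against the IgG control and 55.5% against input. The median length of the 25 was 8197 bp, against 2166 bp for all protein-coding genes, and a role of length was not tested. Within 500 bp of a start of their own, 21 had a summit against the IgG control and 23 against input. The shares of all protein-coding genes were 40.1% and 43.2%. The highest summit lay nearest to a start of the gene itself for 15 of the 25 and for 57.5% of all genes with a summit. The median of the highest scores of the 25 was 37.6, below that of the 6 core genes (59.8). The 5 with the highest scores were ihog, a co-receptor for Hedgehog (178.4), Smurf, a ubiquitin ligase (94.2), krz, a β-arrestin (84.6), gish, a casein kinase (77.5), and Usp8, which removes ubiquitin (74.0). Of these 5, the highest summit of Smurf and gish lay at a start of the gene itself, at 106 bp and 3 bp from it. The gish summit is also 34 bp from a start of Mat89Ba, which is read from the opposite strand. The highest summit of krz lay in an intron. The highest summit of Usp8 was 559 bp past its end and 81 bp from the start of meigo, and Usp8 had none within 500 bp of its own start in either list. The ihog summit was 7 bp from the start of Fgop2 past the end of ihog, and the summit at the ihog start itself, 6 bp inside, scored 26.4. The lowest was sotv, which acts in making heparan sulfate, with 1.92.

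Genes that Hedgehog signaling is known to control in other fly tissues were counted by the same rule. Of dpp, en, wg, kn, ara, caup and rho, 0 of 7 had a summit against the IgG control. The share of all protein-coding genes was 52.1%. The median length of the 7 was 12168 bp, and in their length classes the share with a summit was 63.4% to 67.0%. Against input 1 of 7 had a summit, beside 55.5% of all protein-coding genes. This was rho, which encodes a protease that releases EGF-type ligands. Its summits scored 2.26 at 164 bp upstream of a start and 8.69 in its first intron. The nearest summit against the IgG control was 1742 bp from kn, with the insulator gene BEAF-32 as its nearest start, and 8117 bp or more from each of the others. ptc, which Hedgehog also controls, was counted with the core genes and had 4 summits. The difference between the lists was not tested, and it rests on few genes chosen with results known.

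**Figure D4:**
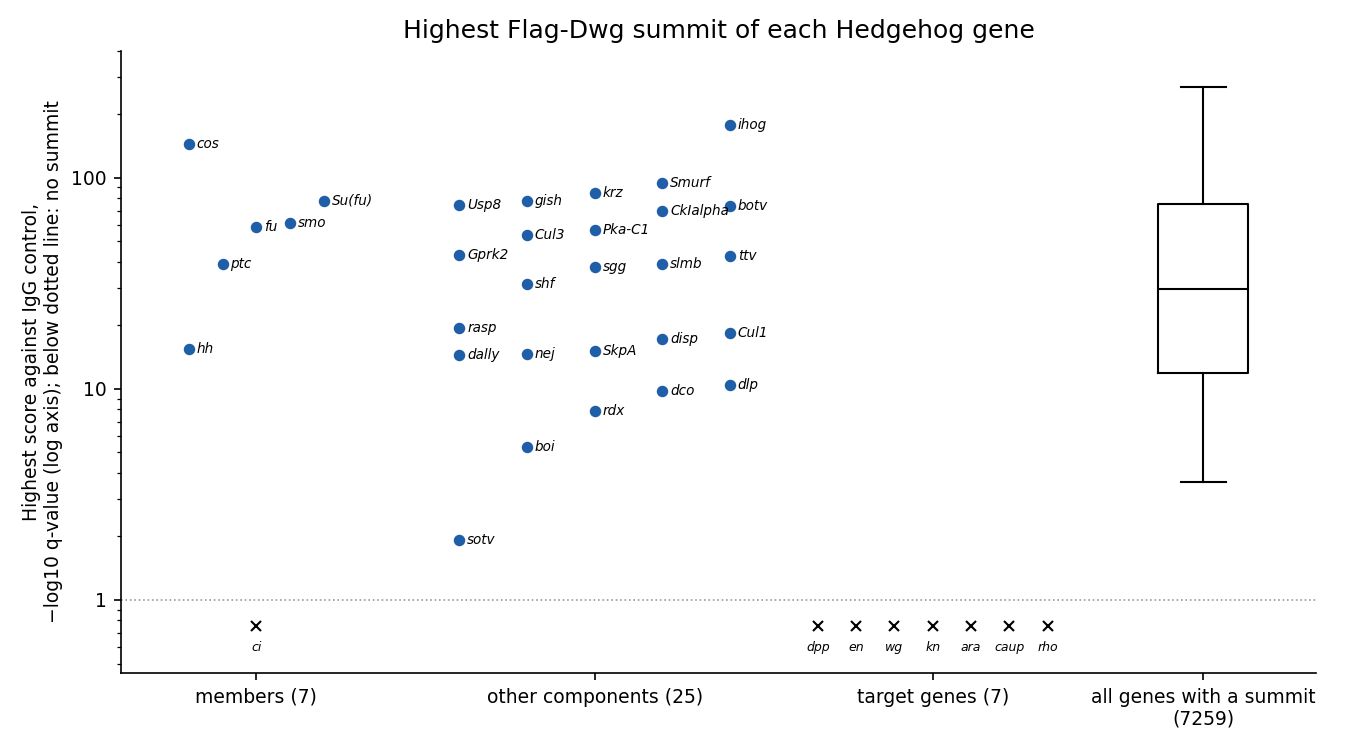
Highest score against the IgG control (−log10 of the q-value, log axis) at each core gene, other component and target gene. Crosses mark genes with no summit, and the box shows all 7259 genes with a summit, with the median as the line, the quartiles as its ends and the 5th and 95th percentiles as whiskers. All 7 target genes and ci are crosses.

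The same count was made for the core of other pathways. In the Notch list 8 of 11 genes had a summit against the IgG control, in the Wingless list 10 of 12 and in the Hippo list 9 of 11, beside 6 of 7 for Hedgehog and 52.1% of all protein-coding genes. Median gene lengths were 19124 bp for Notch, 12459 bp for Wingless, 16995 bp for Hippo and 4940 bp for the 7 Hedgehog genes. That of all protein-coding genes was 2166 bp, and a role of length was not tested. Against input the counts were 10 of 11 for Notch, 10 of 12 for Wingless, 10 of 11 for Hippo and 6 of 7 for Hedgehog, and the share of all genes was 55.5%, so the order of the pathways depended on the control. Their highest scores were 309.6 at Nct, a γ-secretase subunit of the Notch pathway, 113.4 at arr, a Wingless co-receptor, and 147.2 at mats, a cofactor of a Hippo pathway kinase. The cos summit, at 144.5, thus stood close to the highest of the Hippo list. The lists share genes, sgg being both a Hedgehog component and a Wingless gene and wg both a Hedgehog target and a Wingless gene, and differences between the pathways were not tested.

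**Figure D5:**
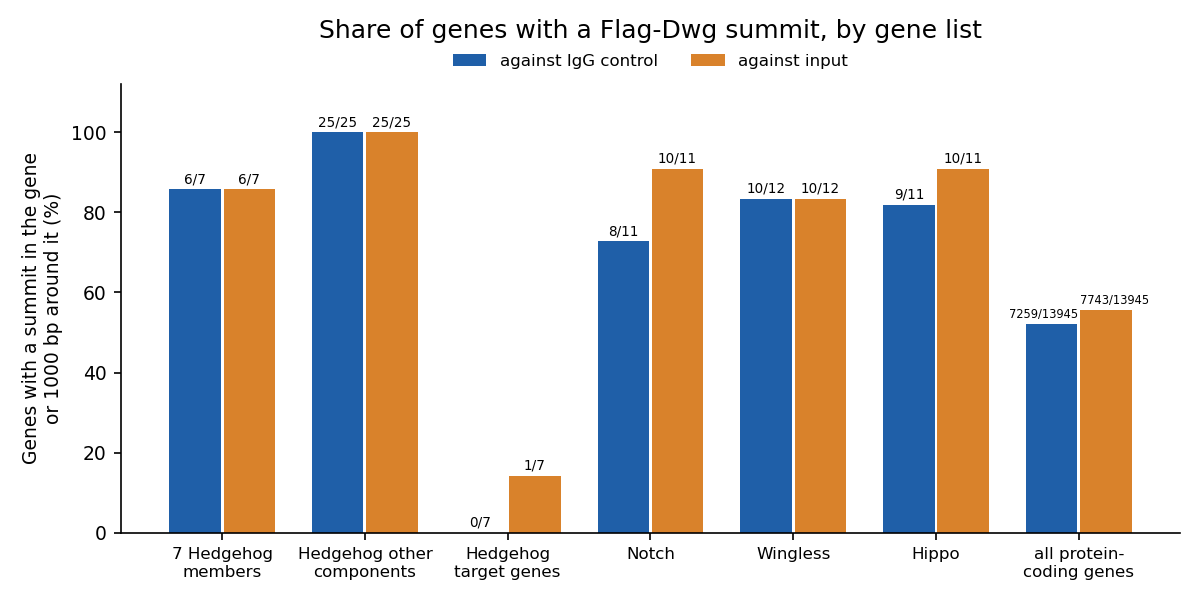
Percentage of genes with a Flag-Dwg summit in the gene or 1000 bp around it, for each gene list and list of summits, with the counts above the bars. The Hedgehog bars stand at 6 of 7, between the 25 of 25 of the other components and the 0 of 7 of the target genes against the IgG control.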

How the data were processed

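The authors trimmed reads with Trim Galore 0.6.4, mapped them to dm6 with Bowtie2 2.3.5.1, filtered them for unique reads with SAMtools 1.6, and ran MACS2 2.2.6 to call peaks. The score of the 2 deposited summit lists is the authors' −log10 of the q-value, with its lowest values at a q-value of 0.05. Whether replicates were pooled before the call is not given in the sources used here. Peak limits, fold enrichments and coverage were not used here.

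Genes and transcripts were those of Ensembl release 115 without transposable elements (18164 genes on 6 arms), and sequence was read from NCBI's copy of the dm6 assembly. Positions are 1-based. A summit was shared when the other list had one within 100 bp. Each summit was given to the nearest start among protein-coding transcripts, and a start at equal distance counted as the gene's own. The named genes are the core genes, the genes nearest to their summits, the 5 highest and the unbound genes of the other Hedgehog lists, the target gene bound against input, and the highest of the Notch, Wingless and Hippo lists; 1 of 12 Notch symbols did not match the annotation. Members and lists were chosen with earlier results of these data known, so counts are set beside the share of all genes and no test was made. Alternatives were a score of at least 5, 10 or 20, input as the control, summits of both lists, gene windows of 0, 500 and 2000 bp, start windows of 100 and 1000 bp to either side and from −1000 to +100 bp, sharing distances of 50, 250 and 500 bp, starts of all annotated genes, and word windows of 25 and 100 bp. The assignment was tested on simulated data, and 200 of 200 planted summits were recovered. Calculations used Python 3.11.15, NumPy 2.4.6 and pandas 2.3.3, and figures Matplotlib 3.10.9.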

Additional observations from a re-analysis of the deposited data

How the results depend on the processing

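Of 58 values recomputed under the alternatives, 47 stayed within 1.5 times the reported count and 11 moved. With a score of at least 20, the summits at the core genes fell from 14 to 6, those nearest to a start of the gene itself from 7 to 4, the other components with a summit from 25 to 14 and all protein-coding genes with one from 7259 to 4432, since fewer summits pass by construction. With no window around the gene 5 summits remained at the core genes, and with 500 bp 9 did, because most lie outside the genes. With 100 bp to either side of a start, 3 of the core genes had a summit there, where 500 bp gave 6. The share of all protein-coding genes was not counted at 100 bp. The target genes went from 0 to 1 with the list against input (rho) and with a window of 2000 bp (kn). Word matches went from 8 to 5 with 25 bp to either side of the summit and to 13 with 100 bp. The number of core genes with a summit was 5 or 6 under the 3 score thresholds, the list against input, the summits of both lists and the 3 gene windows, where it was recomputed. No paired analysis was possible because single libraries have no values in these lists, so no library could be left out either. Library depth is unknown, which limits every score and every absence of a summit.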
